A study of Mus musculus with 4 samples.

Results

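Integrins are adhesion receptors made of an alpha and a beta chain, and 8 of their genes were followed here in mouse mesenteric lymph node cells enriched for one of them. They were taken by symbol from the gene rows of the count files: Itgax, Itgam, Itgal, Itgb2, Itgae, Itgb7, Itga4 and Itgb1. Each symbol matched 1 row, giving 8 of 55450 gene rows, and all 8 passed the filter on low counts. Itgax encodes CD11c, the surface protein that was used to enrich the cells, so its presence follows from the preparation.

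The mesenteric lymph nodes came from wild-type C57BL/6J mice, whose age and sex the labels do not give, and 2 nodes were pooled for each sample. CD11c+ cells were taken with magnetic beads, and the cells of each pool were then divided between 2 wells and cultured for 6 h. The control well received water and the agonist well 10 µM of an agonist of Ffar2, a receptor for short-chain fatty acids, which the labels do not name further. There were 2 control and 2 agonist libraries, numbered 2 and 3 in both groups, and same-numbered wells held cells of 1 pool. The files hold reads per gene, with a total over genes of 43238375 to 59902172 reads per library. Xist was read in both libraries of pool 2 and in neither of pool 3, and Ddx3y, which is Y-linked, in both libraries of pool 3 and in neither of pool 2. Any difference between the pools therefore cannot be told apart from a difference in the sex of the mice. RNA came from a mixture of cells, so fewer cells of a type and less RNA per cell cannot be told apart.

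Leukocyte integrins hold cells to vessel walls, to epithelium and to other immune cells, and most stay inactive until signals inside the cell open them. The beta 2 chain (Itgb2, CD18) is restricted to leukocytes and pairs with alpha L (Itgal, CD11a), alpha M (Itgam, CD11b), alpha X (Itgax, CD11c) or alpha D (Itgad), and without it none of these reaches the surface. The beta 7 chain (Itgb7) pairs with alpha E (Itgae, CD103), which binds E-cadherin on epithelium, or with alpha 4 (Itga4, CD49d), which together bind the gut homing ligand MAdCAM-1. Alpha 4 also pairs with beta 1 (Itgb1, CD29) to bind VCAM-1. In intestinal lymph nodes CD103 and CD11b are the proteins by which migratory dendritic cells are usually divided into subsets.

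Itgam and Itgax are neighbours on chromosome 7 and lie on the same strand, Itgam at 128062640 to 128118491 and Itgax at 128129547 to 128150657 (GRCm38, GENCODE M21). Itgal lies on the same chromosome at 127296260 to 127335138. Itgb2 lies on chromosome 10 (77530252 to 77565708), Itgae on chromosome 11 (73090583 to 73147446), Itgb7 on chromosome 15 (102215995 to 102231944, minus strand), Itga4 on chromosome 2 (79255426 to 79333123) and Itgb1 on chromosome 8 (128685654 to 128733200). Promoter windows of RefSeq (GRCm38.p6, 250 bases before to 50 after a start site) were matched for 5 of the 8 genes, Itgax, Itgam, Itga4, Itgb1 and Itgb7. The windows of the neighbouring pair, whose values differed between the pools in the same direction, and of Itga4, which varied least, are shown 5′ to 3′. Capitals mark the letters GAGGAA on either strand, a core bound by ETS factors such as PU.1, the myeloid regulator.
Itgax (chr7:128129300-128129599, plus strand): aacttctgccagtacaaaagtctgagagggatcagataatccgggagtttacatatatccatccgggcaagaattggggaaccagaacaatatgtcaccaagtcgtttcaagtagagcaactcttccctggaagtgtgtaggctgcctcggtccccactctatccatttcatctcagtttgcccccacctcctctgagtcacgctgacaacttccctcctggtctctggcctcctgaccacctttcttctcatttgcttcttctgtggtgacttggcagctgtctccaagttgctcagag
Itgam (chr7:128062390-128062689, plus strand): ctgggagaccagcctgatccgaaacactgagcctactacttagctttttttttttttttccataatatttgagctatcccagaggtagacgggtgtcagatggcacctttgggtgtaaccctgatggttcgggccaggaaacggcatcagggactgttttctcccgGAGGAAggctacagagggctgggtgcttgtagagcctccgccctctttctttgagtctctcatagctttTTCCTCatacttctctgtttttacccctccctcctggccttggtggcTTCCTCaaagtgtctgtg
Itga4 (chr2:79255176-79255475, plus strand): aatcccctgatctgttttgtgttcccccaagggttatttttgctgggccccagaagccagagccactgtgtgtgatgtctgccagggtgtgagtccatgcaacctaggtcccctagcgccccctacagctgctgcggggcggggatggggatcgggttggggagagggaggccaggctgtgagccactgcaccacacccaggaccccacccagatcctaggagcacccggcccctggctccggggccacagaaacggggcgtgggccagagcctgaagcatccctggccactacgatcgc

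GAGGAA was found 3 times in the Itgam window, 1 time each in those of Itgb1 and Itgb7 and 0 times in those of Itgax and Itga4, and 28.3% of 32851 windows held it at least once on either strand. No TATAAA was found on either strand in the 5 windows, against 13.6% of all windows that held it. The GC content was 50% for Itgax, 50.3% for Itgam and 64.3% for Itga4, with a median of 52.7% over all windows. The Itgb1 window was richer in CpG, with 27 against a median of 7. These matches describe letters and do not show that a factor binds.

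To compare levels between genes, reads were scaled to a common library size with trimmed mean of M-values factors (CPM) and divided by the length of a gene's merged exons, giving CPM per kb. Itgb2 had the highest such level, with 152.4 and 76.7 in the control wells and 141.2 and 95.1 in the agonist wells of pools 2 and 3. Itga4 followed with 104.6 and 108.3 CPM per kb in the control and 93.7 and 103.7 in the agonist wells. Their ranges overlapped, and Itgb2 was above Itga4 in 2 of the 4 libraries, both of pool 2. Over the longest transcript in place of merged exons the order of their means turned, with 146.8 CPM per kb for Itga4 and 119.6 for Itgb2. Both stood high among all genes: 98.0% of the 18297 tested genes had a lower mean CPM per kb than Itgb2, and 97.6% a lower one than Itga4.

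Itgax, the gene of the enrichment marker, had 39.3 and 22.0 CPM per kb in the control and 37.1 and 19.9 in the agonist libraries of pools 2 and 3, a mean of 29.6 ± 10.1 (SD, n = 4). That was above 91.1% of the tested genes. Itgb1 was next with 28.2 ± 4.59 CPM per kb (SD, n = 4), and its order with Itgax was split, 2 libraries each way. Itgal, whose product forms LFA-1 with beta 2 and is carried by T and B cells too, had 15.7 ± 6.10 CPM per kb. Itgb7 had 9.97 ± 2.78 and Itgae 4.05 ± 1.73 (SD, n = 4). The ranges of Itgal and Itgb7 overlapped although Itgal was higher in each of the 4 libraries, while Itgb7 and Itgae did not overlap.

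**Figure D1:**
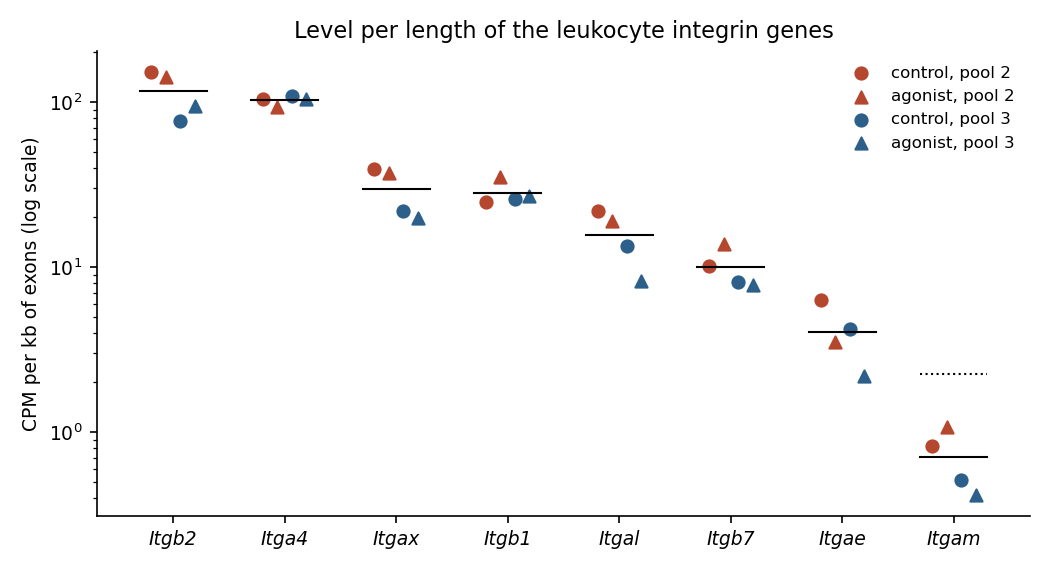
CPM per kb of merged exons (log axis) of the 8 integrin genes in each library, with circles for control and triangles for agonist wells, red for pool 2 and blue for pool 3. Solid bars are means of the 4 libraries, and the dotted bar is the Itgam mean over exon bases that no other gene covers (2.25 against 0.706); Itgb2 and Itga4 stand highest and Itgae and Itgam lowest.

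Itgam, which encodes CD11b, was the lowest of the 8, with 179 and 135 reads in the control and 280 and 119 in the agonist libraries. Much of this gene could not be counted. Of its 5024 exon bases, 3450 (68.7%) also belong to Gm49368, a gene model annotated on the same strand that reads through from Itgam. The files list 0 to 10 reads for Gm49368, and reads that overlap several genes were set aside in a summary line of their own. Divided by merged exons the Itgam level was 0.706 ± 0.298 CPM per kb, and over the exon bases that no other gene covers it was 2.25 ± 0.951 (SD, n = 4). It stayed below the Itgae mean of 4.05, although the ranges of these 2 genes then overlapped (1.33 to 3.42 for Itgam and 2.18 to 6.31 for Itgae). The low Itgam count therefore gives no measure of how many CD11b+ cells there were. Among the other 7 genes, Itga4 shared 8.0% of its exon bases with Cerkl on the opposite strand and the rest shared none. Markers of neutrophils, which carry CD11b, were near 0: Ly6g had 0 reads, and the 8 neutrophil genes summed to 8.98 to 18.7 CPM. Monocyte and macrophage markers were not, with a sum of 3229 to 5799 CPM over 12 genes, most of it Lyz2.

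The cells carried the RNA of dendritic cells. Zbtb46, a transcription factor gene of conventional dendritic cells, had 56.6 to 74.8 CPM, Flt3, the receptor for their growth factor, 146.6 to 309.8 CPM, and Ccr7, which guides migratory dendritic cells into nodes, 7374 to 13380 CPM. Other cells remained, with 933.3 to 1901 CPM summed over 18 T cell genes and 1001 to 2016 CPM over 13 B cell genes. As background, lymphocytes carry Itgal, Itga4, Itgb7 and Itgb1 too.

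Per length, the beta 2 chain exceeded the sum of its alpha partners. Itgb2 over the sum of Itgax, Itgal, Itgam and Itgad was 2.42 and 2.10 in the control wells and 2.45 and 3.25 in the agonist wells of pools 2 and 3. With Itgam taken over its unshared exon bases the ratios were 2.36, 2.03, 2.35 and 3.15. Itgax made up 62.5%, 59.9%, 64.3% and 68.0% of that alpha sum and Itgal 34.9%, 36.8%, 33.1% and 28.2%, in the same order. Alpha X was thus the leading partner of beta 2 at the RNA level in each library, whichever length was used for Itgam. Agonist replicate 3 stood apart with the highest ratio and the lowest Itgal share. Itgad, the remaining partner, had 94 to 177 reads.

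For the partners of alpha 4, Itgb1 exceeded Itgb7 per length, by 2.46 and 2.52 times in pool 2 (control and agonist) and by 3.20 and 3.46 times in pool 3. Itga4 in turn exceeded the sum of Itgb1 and Itgb7 by 1.92 to 3.18 times. Itgae over Itgb7, the 2 chains of the CD103 integrin, was 0.62 and 0.52 in the control wells and 0.25 and 0.28 in the agonist wells. The groups did not overlap in that ratio, but how often ratios of other gene pairs do so was not computed. Both chains entered it in pool 2, where the log2 ratio of agonist over control was -0.85 for Itgae and 0.45 for Itgb7. In pool 3 these were -0.95 and -0.06. With 2 libraries a group an exact permutation test of Itgae over Itgb7 could not reach a threshold of 0.05, and none was run.

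The agonist comparison asks whether 6 h with the Ffar2 agonist changed the transcripts. None of the 8 integrin genes passed in edgeR's quasi-likelihood test, and 0 had an unadjusted p under 0.05. In that test 0% of 18297 genes passed at an adjusted p under 0.05 (0 genes) and 1.58% (289 genes) had an unadjusted p under 0.05. In limma-voom and DESeq2 the count of integrin genes called was also 0 (DESeq2 called 7 genes in all and limma-voom 0). The median log2 fold change of the 8 was -0.03, with 4 lower and 4 higher, against -0.05 and 55.4% lower over all tested genes. With the pool as a block 0.00547% of the genes (1 gene) passed, none of them an integrin, and the median stayed at -0.03. On simulated data with known changes of 2, 4 and 8 times, the unblocked fit called 0 of the changed genes at each size. The fit with the block called 7 of 67 genes changed 2 times, 47 of 67 changed 4 times and 61 of 66 changed 8 times. It also called 8 unchanged genes. The lack of calls without the block is therefore little information on these genes. With the block it is little information on changes of about 2 times. The values that follow are sizes with their errors.

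Itgae, the alpha chain of CD103, had the largest difference. It had 28.9 and 19.3 CPM in control replicates 2 and 3 and 16.04 and 9.98 CPM in agonist replicates 2 and 3, from 566 to 1259 reads. Both agonist libraries lay below both control libraries, a pattern that 13.5% of all tested genes showed. This came to a log2 fold change of -0.89 (SE 0.40, 95% interval -1.85 to 0.07), with an unadjusted p of 0.0637 and an edgeR adjusted p of 0.9999. Within the pools the log2 ratio was -0.85 in pool 2 and -0.95 in pool 3. With the pool as a block the fold change was -0.90 (SE 0.30, interval -1.58 to -0.23), with an unadjusted p of 0.0146 and an edgeR adjusted p of 0.9998. An unadjusted p under 0.05 with a lower level was found in that fit for 1.84% of the tested genes. Leaving out 1 library at a time from the unblocked fit gave -1.24 to -0.57. It was -0.57 without control replicate 2 and -0.59 without agonist replicate 3. Without control replicate 3 it was -1.07 and without agonist replicate 2 -1.24. Each of these fits leaves the 2 groups with different pools.

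**Figure D2:**
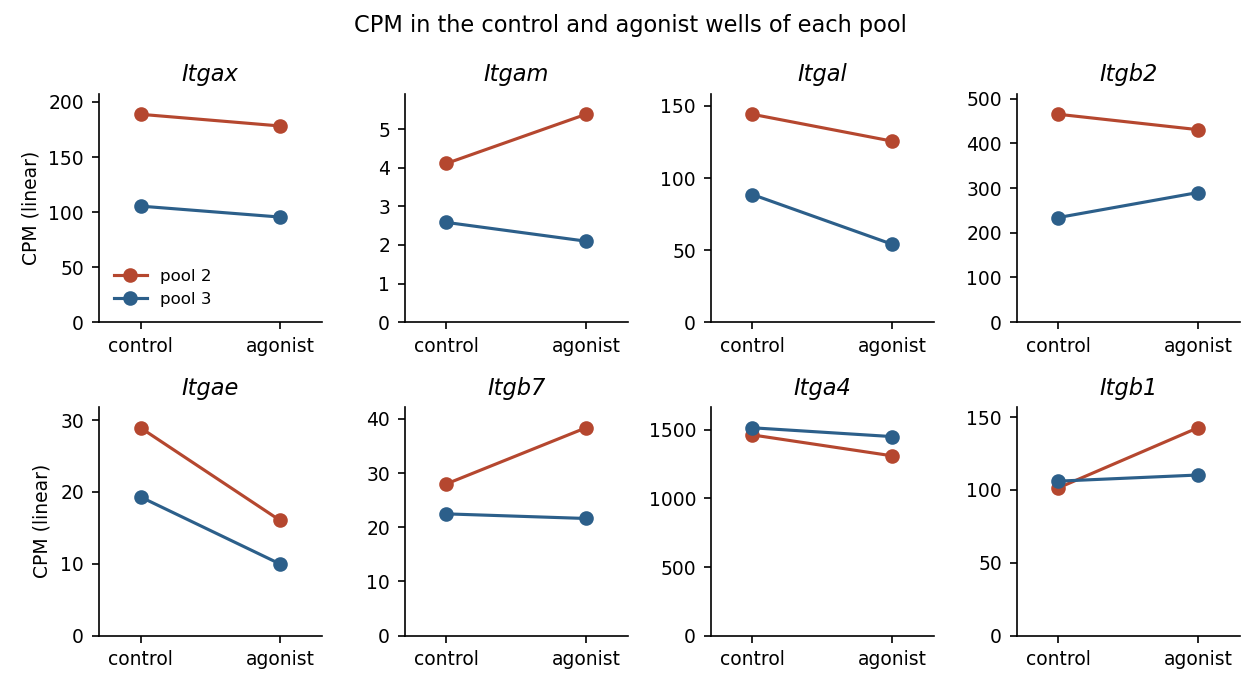
CPM (linear axes from 0) of each integrin gene in the control and agonist wells, joined within pool 2 (red) and pool 3 (blue). The Itgae lines slope down in both pools, from 28.9 to 16.04 and from 19.3 to 9.98 CPM, while those of Itgam, Itgb2 and Itgb7 go opposite ways in the pools.

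CD103 is carried by intestinal dendritic cells and also by CD8+ T cells and other lymphocytes, and levels of several marker lists moved beside Itgae. The 18 T cell genes were lower in both pools for 16, and their summed level was 1163 to 1901 CPM in the control and 933.3 to 1483 CPM in the agonist libraries, a log2 ratio of -0.36 in pool 2 and -0.32 in pool 3. That sum rested largely on Il7r, at a mean of 442.8 CPM, which had log2 ratios of -0.06 and 0.10. The median over the 18 genes was lower than the ratio of the sum, at -0.40 in pool 2 and -0.84 in pool 3, near the -0.95 of Itgae in pool 3. Trac, a constant chain of the T cell receptor, had -0.85 and -0.83, and Lef1, a T cell transcription factor gene, -0.40 and -1.11. The CD8 genes were lowered less than Itgae, with -0.35 and -0.24 for Cd8a and -0.685 and -0.33 for Cd8b1. So were Cd4 (-0.49 and -0.30) and Tcf7 (-0.52 and -0.22). Itgae lay within the range of the T cell genes in both pools. In pool 2 it was near the low end of that range, where Cd247 was lowest at -0.895. Relative to the summed T cell genes, Itgae had log2 ratios of -0.49 in pool 2 and -0.63 in pool 3. The 8 genes of type 1 conventional dendritic cells (cDC1), a class that often carries CD103, summed to 482.7 to 794.0 CPM in the control and 882.3 to 949.1 CPM in the agonist libraries, a log2 ratio of 0.87 and 0.26. In pool 2 that sum rested on Irf8, which went from 126.2 to 505.5 CPM. Xcr1 and Clec9a, which are more specific to cDC1, had log2 ratios of -0.15 and -0.26 in pool 2 and 0.81 and -0.15 in pool 3. Batf3 and Cadm1 had 0.73 and 1.125 in pool 2 and 0.03 and 0.24 in pool 3. Of the 8 cDC1 genes, 3 were higher in both pools and 1 was lower in both. The 8 genes of type 2 cells (cDC2) summed to 188.0 to 224.3 CPM over all libraries, with log2 ratios of -0.05 and -0.10. For migratory dendritic cell genes the log2 ratios were -0.32 and 0.16. Of 8 plasmacytoid dendritic cell genes 6 were lower in both pools, and their sum had log2 ratios of -0.38 and -0.50. Of 13 B cell genes 10 were lower in both pools, with log2 ratios of the sum of -0.13 and -0.31. The plasma cell sum had the lowest ratios of the lists, -1.71 and -2.02. It rested on Igha, the heavy chain of IgA, which was the gene called with the block (log2 fold change -3.13, edgeR adjusted p = 0.0140), and on Jchain, the joining chain, at -1.79 in that fit; of its 7 tested genes 2 were lower in both pools and 2 higher in both. The part of these cell types in the Itgae values was not tested.

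**Figure D3:**
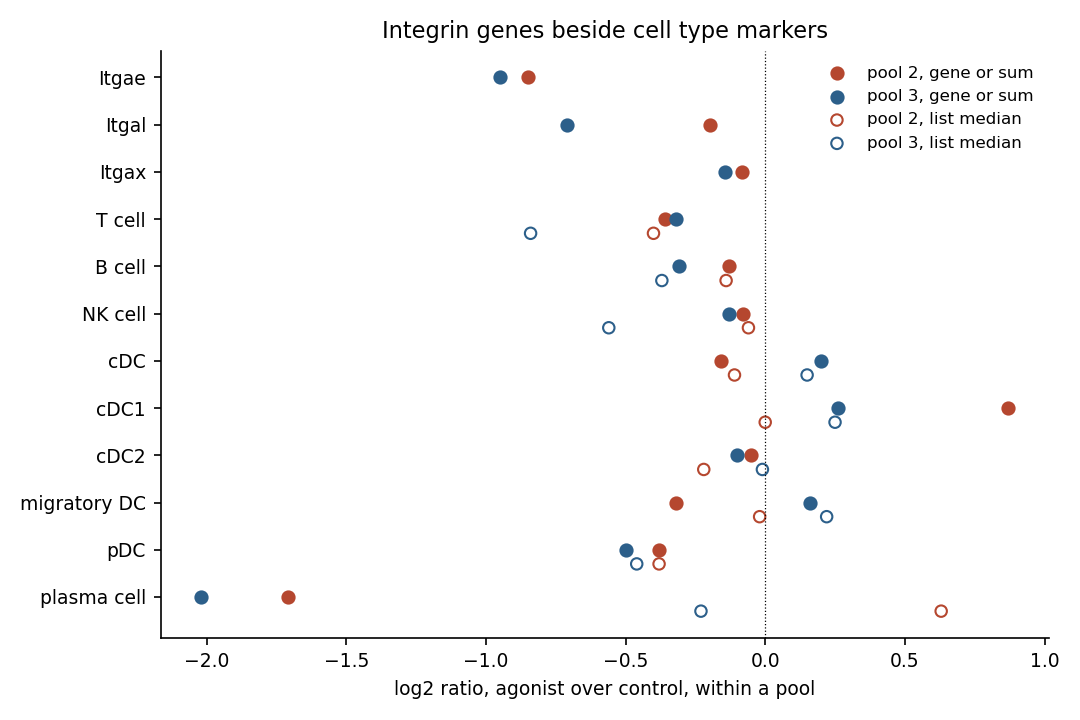
Log2 ratio of agonist over control within pool 2 (red) and pool 3 (blue) for 3 integrin genes and for marker lists (filled points for the summed CPM, open points for the median over the genes of the list) of conventional (cDC), migratory and plasmacytoid (pDC) dendritic cells, lymphocytes and plasma cells. Itgae lies at -0.85 and -0.95, the T cell sum at -0.36 and -0.32 and the median T cell gene at -0.40 and -0.84.

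Itgax itself had 188.8 and 105.4 CPM in the control and 178.2 and 95.5 CPM in the agonist libraries. The groups overlapped, and the wells of a pool differed little beside the distance between the pools. Without the block the log2 difference was -0.10 (SE 0.43), with a 95% interval of -1.14 to 0.93 and an edgeR adjusted p of 0.9999. Blocking on the pool narrowed the interval to -0.64 to 0.41 around -0.11 (SE 0.23), with an edgeR adjusted p of 0.9998.

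The other beta 2 genes went different ways. Itgal had 144.2 and 88.5 CPM in the control and 125.6 and 54.1 CPM in the agonist libraries, lower in both pools by a log2 ratio of -0.20 and -0.71. The log2 fold change of Itgal was -0.37 (SE 0.47), and -0.45 with the block (SE 0.25, edgeR adjusted p = 0.9998, unadjusted p = 0.107). Like Itgae, it was lower beside lower T cell genes, whose medians of -0.40 and -0.84 lay below the Itgal ratios in both pools. Relative to the summed T cell genes, Itgal had log2 ratios of 0.16 in pool 2 and -0.39 in pool 3. The part of T cells in the Itgal values was not tested. Itgb2 had 465.2 and 234.2 CPM in the control and 430.8 and 290.1 CPM in the agonist libraries. Its wells differed in opposite directions in the pools (-0.11 and 0.31), and its log2 fold change was 0.04 (SE 0.40). Itgam, at 4.11, 2.58, 5.39 and 2.10 CPM, also went both ways (0.39 and -0.30), with a log2 fold change of 0.16 (SE 0.60).

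Itgb7, the shared partner of alpha E and alpha 4, had 28.0 and 22.5 CPM in the control and 38.4 and 21.6 CPM in the agonist libraries, a log2 fold change of 0.25 (SE 0.38). Agonist replicate 2 alone was high, and the log2 ratio was 0.45 in pool 2 and -0.06 in pool 3. The Itgb7 ratios thus did not follow those of Itgae, which were below 0 in both pools. Itgb1 had 101.4 and 106.0 CPM in the control and 142.6 and 110.2 CPM in the agonist libraries, with a log2 fold change of 0.29 (SE 0.27) and ratios of 0.49 and 0.06. Both agonist libraries lay above both controls, as they did for 11.4% of tested genes. Itga4 had 1462 and 1514 CPM in the control and 1310 and 1450 CPM in the agonist libraries. Its highest library exceeded its lowest by 1.16 times, the narrowest spread of the 8. Both agonist libraries lay below both controls by a small margin, a log2 difference of -0.11 (SE 0.23) with a 95% interval of -0.67 to 0.45. By pool, Itgax, Itgal, Itgae and Itga4 were lower in both pools, 4 of 8, against 27.8% of all tested genes.

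The pools were then compared, with the group as a term. No integrin gene passed the adjusted threshold in edgeR, which 0.394% of the tested genes (72 genes, 19 higher and 53 lower) did. Scaled by total counts only, 5 genes passed, 4 higher and 1 lower. On simulated data this fit called 15 of 67 genes changed 2 times, 57 of 67 changed 4 times and 61 of 66 changed 8 times. It also called 14 unchanged genes. The lack of calls is therefore little information on changes of about 2 times. The 4 beta 2 integrin genes among the 8, Itgax, Itgal, Itgb2 and Itgam, had lower values in pool 3 than in pool 2. Each had an unadjusted p under 0.05 and a lower level, 4 of 8, against 7.71% of all tested genes. Itgam rested on 119 to 280 reads, with an edgeR unadjusted p of 0.0489. Its p was 0.0455 in limma-voom, but 0.096 in DESeq2 and 0.0522 in edgeR with DESeq2 size factors. Itgad, the beta 2 partner outside the 8, had a log2 difference of 0.26 (SE 0.49). Both pool 3 libraries lay below both pool 2 libraries for 5 of the 8 (Itgax, Itgal, Itgb2, Itgam and Itgb7), against 25.2% of all genes. The median log2 difference of the 8 was -0.71, with 7 lower, while over all tested genes it was -0.01, with 50.4% lower. This comparison sets 1 pool against 1 pool, and its p-values measure how far wells of a pool lie apart, not mice.

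Itgax had 188.8 and 178.2 CPM in pool 2 and 105.4 and 95.5 CPM in pool 3, a log2 difference of -0.87 (SE 0.23, unadjusted p = 0.00479, edgeR adjusted p = 0.134). Itgal differed by -0.96 (SE 0.25, edgeR adjusted p = 0.131), Itgb2 by -0.78 (SE 0.24, adjusted p = 0.190) and Itgam by -1.01 (SE 0.45, adjusted p = 0.358). The chains of the CD103 integrin were lower by less than the beta 2 group in these estimates, with -0.63 (SE 0.30) for Itgae and -0.57 (SE 0.29) for Itgb7; the difference between the groups was not tested. Itgb1 at -0.15 (SE 0.25) and Itga4 at 0.10 (SE 0.23) were close to 0. DESeq2 called 2 of the 8 lower in pool 3, Itgax (adjusted p = 0.0336) and Itgal (adjusted p = 0.0274). It called 3.86% of all tested genes (706 genes, 417 of them lower). With 1 library left out and the group term dropped, 1 of the pools keeps 1 library, so only sizes are given here. The Itgax difference then ranged from -0.96 to -0.79 and that of Itgb2 from -0.93 to -0.64. Itgal ranged from -1.33 to -0.6 and Itgam from -1.2 to -0.8. The range of Itgae was wider, from -1.17 to -0.13, and that of Itgb7 was -0.79 to -0.33.

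Markers of several cell types moved with these genes. Of 18 T cell genes 17 were lower in pool 3, with a summed log2 ratio of -0.71 in the control and -0.67 in the agonist wells. Of 12 monocyte and macrophage genes 9 were lower (-0.84 and -0.55), and of 13 B cell genes 12 (-0.70 and -0.88). Of 8 genes of plasmacytoid dendritic cells, which carry CD11c, 7 were lower (-0.65 and -0.77), 6 of them at an unadjusted p under 0.05, with a median log2 difference of -0.92; Klk1 was called, at -2.49 (edgeR adjusted p = 0.0249). Relative to the monocyte and macrophage sum, most of it Lyz2, Itgax had log2 ratios of 0.00 and -0.35 and Itgb2 of -0.15 and -0.02. Relative to the T cell sum, Itgax had -0.13 and -0.23 and Itgb2 -0.28 and 0.10. For the conventional dendritic cell sum the values were -0.43 and -0.84 for Itgax and -0.58 and -0.51 for Itgb2. That sum rested on Cd74, H2-Aa and H2-Ab1, at means of 12580, 4233 and 2267 CPM. These genes were lower in pool 3, with log2 differences of -0.21, -0.46 and -0.35. The rest of the list, Zbtb46, Flt3, Kit and Dpp4, was higher (0.26, 0.55, 0.83 and 0.43). Itgax had -1.56 and -1.01 relative to cDC1 genes and -1.05 and -1.59 relative to migratory dendritic cell genes. Itgb2 had -1.71 and -0.68, and -1.20 and -1.26, for those 2 lists. Markers of cDC1 went the other way (0.72 and 0.11), with 7 of 8 genes higher. The sum for migratory dendritic cells was also higher (0.21 and 0.69), but most of it was Ccr7 (mean 10770 CPM, log2 difference 0.57), 3 of the 8 genes were lower and the median was 0.18. The part of these cells in the integrin values was not tested.

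**Figure D4:**
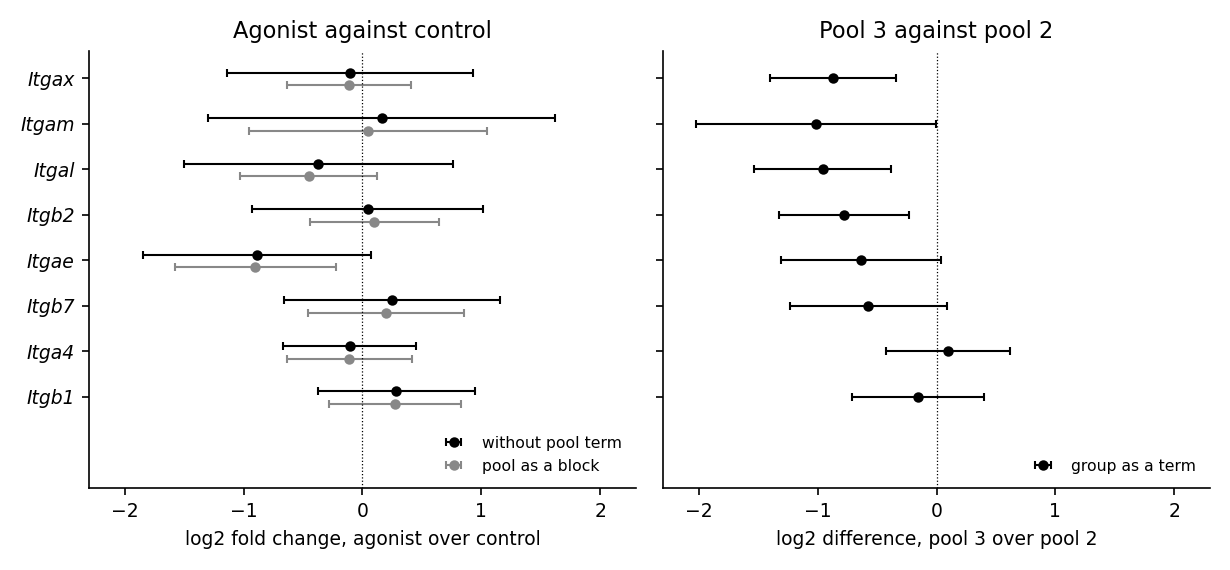
Log2 differences of the 8 integrin genes with 95% intervals from edgeR, at left for agonist over control without (black) and with (grey) the pool as a block, at right for pool 3 over pool 2. No gene passed the adjusted threshold in either comparison; the beta 2 genes lie at -1.01 to -0.78 between the pools, and Itgae at -0.89 between the conditions.

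The other 18 integrin genes set the 8 in their family. Of the 18, 17 were tested and 0 passed in edgeR in either comparison. At an unadjusted p under 0.05 there were 1 with the agonist (without the block) and 4 between the pools, against 1.58% and 13.9% of all tested genes. With the pool as a block the agonist count was 1 in edgeR (Itga5, 0.87, SE 0.31), 1 in DESeq2 and 1 in limma-voom. The shares of all tested genes were 3.53%, 4.23% and 4.55%, and 0 of the list were called. Between the pools DESeq2, and edgeR with no filter, called Itgb3. With the group term dropped, edgeR called Itga5 and Itgb3 without control replicate 2 and Itga1 without agonist replicate 2. Itgb6 was listed at 0. For the others the median log2 fold change with the agonist was -0.31, with 9 lower and 8 higher. Itga5, the fibronectin receptor chain, had 50.6 and 58.5 CPM in the control and 133.4 and 74.0 CPM in the agonist libraries, with a log2 fold change of 0.93 (SE 0.36, unadjusted p = 0.0396, edgeR adjusted p = 0.9999). Both agonist libraries were higher, agonist replicate 2 by far the most. Itgb5, Itgb4 and Itga1, next by p, had log2 fold changes of -0.69 (SE 0.53), -1.41 (SE 1.09) and 0.62 (SE 0.49), and Itgb4 had 4 to 23 reads. Between the pools the smallest p was that of Itgb3, which pairs with alpha V and the platelet chain Itga2b: 27.0 and 50.8 CPM in pool 2 and 15.1 and 7.41 CPM in pool 3, a log2 difference of -1.80 (SE 0.46, edgeR adjusted p = 0.121). Itga8, Itga11 and Itga1 followed at 2.45 (SE 0.88), -2.03 (SE 0.74) and 0.84 (SE 0.34). Itgb8, named after its values were seen, encodes the chain that with alpha V releases active TGF-beta and had 304.4 to 421.8 CPM, with a log2 fold change of 0.05 (SE 0.29) with the agonist.

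Ligands of these integrins were read at widely different levels. Of 12 ligand genes, 10 were tested and 0 passed in edgeR in either comparison. At an unadjusted p under 0.05 there were 0 with the agonist (without the block) and 4 between the pools, against 1.58% and 13.9% of all tested genes. With the pool as a block the agonist count was 1 in edgeR (Fn1, 1.04, SE 0.42), 1 in DESeq2 and 1 in limma-voom. The shares of all tested genes were 3.53%, 4.23% and 4.55%, and 0 of the list were called. Between the pools DESeq2, and edgeR with no filter, called Spp1. With the group term dropped, edgeR called Cdh1 without control replicate 2 and Icam2 without agonist replicate 2. The median log2 fold change with the agonist was -0.10. Fn1, which encodes fibronectin, had 3.79 and 5.40 CPM in the control and 4.87 and 17.5 CPM in the agonist libraries, a log2 fold change of 1.28 (SE 0.65). Madcam1, the gut homing ligand, had -0.93 (SE 0.56) at 1.29 to 3.42 CPM, Cdh1, E-cadherin and the ligand of CD103, 0.76 (SE 0.48), and Icam2, a ligand of LFA-1, -0.48 (SE 0.54). Cdh1 was high only in agonist replicate 2, at 27.9 CPM against 9.79 to 14.0 CPM. Between the pools Spp1, which encodes osteopontin, differed by -1.38 (SE 0.34), Icam2 by -1.11 (SE 0.31), Thy1, also a T cell marker, by -1.85 (SE 0.53) and Fn1 by 1.19 (SE 0.43).

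Regulation of integrins from inside the cell was described by 25 genes, of which 21 were tested and 0 passed in edgeR in either comparison. The list mixes genes that switch integrins on with inhibitors such as Sharpin. Its counts and median are therefore no measure of activation. At an unadjusted p under 0.05 there were 0 with the agonist (without the block) and 6 between the pools, against 1.58% and 13.9% of all tested genes. With the pool as a block the agonist count was 1 in edgeR (Skap1, -0.69, SE 0.29), 5 in DESeq2 and 5 in limma-voom. The shares of all tested genes were 3.53%, 4.23% and 4.55%, and 0 of the list were called. Between the pools DESeq2, limma-voom and edgeR with no filter called Skap1. With the group term dropped, edgeR called Ptk2b, Rasa3 and Skap2 without control replicate 2 and Cyth1, Pxn and Vcl without agonist replicate 2. The median log2 fold change with the agonist was 0.14. Sharpin, an inhibitor of integrin activation, had a log2 fold change of 0.82 (SE 0.39), Pxn, the focal adhesion adaptor paxillin, 0.61 (SE 0.35), Vcl, the actin linker vinculin, 0.75 (SE 0.46) and Cyth1, which binds the tail of beta 2, 0.52 (SE 0.32). In each of these 4, agonist replicate 2 was the highest and control replicate 2 the lowest library. Tln1 and Fermt3, which encode talin and kindlin-3, the proteins that open beta 2, had 223.0 to 402.6 and 283.4 to 345.7 CPM. Between the pools the smallest p was that of Skap1, a T cell adaptor for LFA-1, at -1.35 (SE 0.29, edgeR adjusted p = 0.0879), followed by Rasa3 (-0.86, SE 0.31), Skap2 (0.62, SE 0.24) and Rasgrp2 (-0.85, SE 0.34). Ilk had 2 to 8 reads, and 89.7% of its exon bases are shared with neighbouring genes, so its count is no measure of its level.

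The genes whose pattern over the 4 libraries was most like that of 3 integrin genes were sought among 6384 protein-coding genes, by the Euclidean distance between log2 CPM values that were each centred on their mean. For Itgax they were Acbd3 (distance 0.05), Cybb, the catalytic subunit of the phagocyte oxidase (0.06), and Htt (0.06). Cybb had 411.4 and 220.4 CPM in the control and 390.7 and 210.1 CPM in the agonist libraries, like Itgax high in both wells of pool 2. For Itgae they were Cdkn1b, a cell cycle inhibitor (0.16), Anp32a (0.18) and Tmem154 (0.19), and Cdkn1b had 101.1, 59.5, 56.9 and 32.6 CPM in control replicates 2 and 3 and agonist replicates 2 and 3. For Itgb7 they were Trpc4ap (0.06), Plaa (0.07) and Vasp, an actin regulator (0.08), each highest in agonist replicate 2.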

How the data were processed

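RNA from CD11c+ mesenteric lymph node cells was read in 4 libraries, 2 control and 2 agonist, made with the SMART-seq v4 kit, per the labels' protocols. The authors deposited whole-number read counts per gene; STAR 2.7, HTSeq 0.11.1 and GRCm38 (mm10) are named in the submitters' processing notes, and nothing used here gives the strand setting. All 55450 gene rows matched GENCODE M21, which gave coordinates and exon lengths. Summary lines naming no gene were left out: 15.96% to 19.99% of reads lay outside genes, 5.77% to 6.50% overlapped several genes and 6.54% to 6.98% aligned to several places.

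The counts were tested in R 4.3.3 with edgeR 4.0.16 (default filter with a minimum count of 10, 18297 genes; TMM factors 0.947 to 1.051; two-sided quasi-likelihood test; Benjamini-Hochberg adjustment over all tested genes, threshold 0.05). The SE is the fold change over the root of F, and intervals are 95%. Log2 ratios within a pool used a prior count of 2. DESeq2 1.42.0, limma-voom (limma 3.58.1), other scalings and filters, a block for the pool and leaving out each library were alternatives. The protocol pairs same-numbered wells, and their libraries deviated together from the group means (Pearson r = 0.288 across 18297 genes). Whether the nodes of a pool came from separate mice is not stated, so p-values measure the spread between these libraries. All 8 integrin genes were named. From each pathway list the 4 genes with the smallest p in each comparison were named, and Ilk, Tln1, Fermt3 and single marker genes were added after their values were seen. The integrin genes and the lists were chosen with earlier results of these data known. The fits were tested on simulated data, and figures were drawn with matplotlib 3.10.9.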

Additional observations from a re-analysis of the deposited data

Results flagged for a closer look

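Several genes differed in opposite directions between control and agonist wells in the 2 pools. These differences between pools were not tested, since each pool gave 1 well per condition. Itgam had a log2 ratio of agonist over control of 0.39 in pool 2 and -0.30 in pool 3. Itgb2 had -0.11 and 0.31, and Itgb7 had 0.45 and -0.06. Among the other integrin genes Itgb3 had 0.91 and -1.03, Itga8 0.97 and -0.14 (6 to 64 reads) and Itga11 -1.07 and 0.69. The ligand gene Cdh1 had 1.51 and -0.18. Of the genes that regulate integrins from inside the cell, Rasa3 had 0.78 and -0.36, Skap2 -0.27 and 0.08, and Rasgrp2 0.13 and -0.25.

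Itgb1 differed between the pools in opposite directions by condition, with a log2 ratio of pool 3 over pool 2 of 0.06 in the control and -0.37 in the agonist wells; that was not tested either.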

How the results depend on the processing

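With the agonist 0 integrin genes were called under every alternative run, and all 80 log2 fold changes of the 8 genes under other scalings, filters, tools or a replicate block kept their direction. The count over all genes was 0 in the edgeR fit, 9 with no filter, 7 in DESeq2, and with a replicate block 1 in edgeR, 6 in DESeq2 and 2 in limma-voom; leaving out each library gave 0 to 2. The block, with same-numbered wells paired by the protocol, changed no call of an integrin gene. Leaving out 1 library leaves the pools unequal, and signs then turned: the ranges were -0.59 to 0.37 for Itgax, -0.64 to 0.68 for Itgam, -1.07 to 0.11 for Itgal, -0.29 to 0.62 for Itgb2 and -0.19 to 0.60 for Itgb7, but -1.24 to -0.57 for Itgae, -0.19 to -0.0033 for Itga4 and 0.12 to 0.45 for Itgb1. With total counts only, the Itgb1 ratio in pool 3 turned to -0.017.

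Between the pools, 72 genes were called in edgeR, 5 with total counts only (4 higher and 1 lower, against 19 and 53), 600 with no filter, 8 (4 higher and 4 lower) with a minimum count of 50, 706 in DESeq2 and 275 in limma-voom. DESeq2 called 2 integrin genes. Leaving out each library needed the group term to be dropped, chosen after seeing the data, and gave 841 genes without control replicate 2, 1 without control replicate 3, 1575 without agonist replicate 2 and 10 without agonist replicate 3, with 0 to 2 integrin genes; Itgb1 then ranged from -0.39 to 0.11. Per length, Itga4 had 146.8 CPM per kb over its longest transcript, above the 119.6 of Itgb2, and 111.5 over exon bases not shared with another gene, and Itgam 2.25 over such bases, a length chosen after seeing the data. The causes were not tested beyond these lengths. Intervals of the single genes, about 1 log2 unit either way without the block, limit what 2 libraries a group can show.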
